A study of Xenopus laevis with 18 samples.

Results

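This comparison asks how the difference between 2 injected arms of Xenopus laevis explants changed between mid-gastrula and early neurula. It used 12 of the 18 arrays of the series: 3 labelled RA-depleted and 3 labelled control at early neurula, and 3 labelled RA-depleted and 3 labelled control at mid-gastrula. Arrays were paired by replicate number within a stage, which gave 3 pair differences for each stage and 6 in all. Lateral marginal zone, the flank of the gastrula from which lateral mesoderm and the field of the pronephric kidney arise, was cut at early gastrula from embryos that had been injected into all 4 blastomeres at the 4-cell stage. The labelled RA-depleted embryos received GFP RNA together with RNA of cyp26, an enzyme that degrades retinoic acid (RA), and the labelled control embryos received GFP RNA alone. Explants labelled mid-gastrula were cultured for 3 h at 20 °C and those labelled early neurula overnight at 14 °C, so time and culture temperature differ together between the stages and cannot be told apart. Pooling of explants and the parentage of the embryos are not given in the sources used here. The arrays of a group are called biological replicates, but the labels do not say what a number shares, and p-values then measure only the spread between these arrays.

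Retinoic acid is made from vitamin A by retinaldehyde dehydrogenases, broken down by the Cyp26 enzymes, and acts through nuclear receptors that bind DNA next to the genes they control. In the gastrula and neurula of the frog it helps to pattern the body axis from head to tail, and it is needed for the pronephric field to form in the flank. Enzymes that remove RA or its precursor are themselves among the genes that RA is known to induce, so that the pathway limits itself.

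The labels of the arms were checked first on cyp26a1, since the injected RNA encodes a cyp26 enzyme. For cyp26a1.S, Xl2.456.1.S1_at was the brightest probe set and read 9.38, 9.44 and 8.55 on the labelled RA-depleted arrays, against 13.53, 13.05 and 13.21 on the labelled control arrays at early neurula. It read 8.56, 8.34 and 8.35 on the labelled RA-depleted arrays, against 13.92, 13.65 and 13.70 on the labelled control arrays at mid-gastrula. The labelled control arrays were the high ones at both stages, with no overlap. That order would go against the labels if this probe set read the injected RNA. Both Xl2.50113.2.A1_a_at, which also reads cyp26a1.S, and the probe set of its homeolog cyp26a1.L were higher on the labelled RA-depleted arrays at both stages. For each probe set, the order that the labels lead one to expect depends on what it reads. Injected RNA would be higher in the labelled RA-depleted arm. The embryo's own transcript, which RA is known to induce, would be lower there. Groups are therefore named by their labels throughout, all signs below are for labelled RA-depleted minus labelled control, a gene is said to rise or fall where that difference did, and an exchange of the arm labels would reverse each of them. Whether the injected RNA was read by any of these probe sets was not tested.

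All values are log2 intensities, on which a difference of 1 is a 2-fold difference. The arm difference is the level on a labelled RA-depleted array minus that on the labelled control array with the same number and stage. Its change is the mean of the 3 early neurula arm differences minus the mean of the 3 mid-gastrula arm differences, tested with limma across all 32475 probe sets that are not array controls. Calls were made where p after Benjamini-Hochberg adjustment over all of them was under 0.05, and every adjusted p below is from limma. Array medians lay between 5.47 and 5.51. With 3 pairs a stage, an exact permutation test of 1 gene cannot go below a two-sided p of 0.1, and the number of arrays limits the precision.

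By early neurula the arm difference had changed for 120 of 32475 probe sets (0.37%). For 99 of them (0.305%), which include 48 named genes, the labelled RA-depleted arm gained on the labelled control arm. For 21 (0.0647%), which include 14 named genes, it lost ground. The other 54 called probe sets carry no single gene symbol in the annotation. Unadjusted p was under 0.05 for 3186 probe sets (9.81%). The 3 early neurula pair differences lay wholly above or wholly below the 3 mid-gastrula ones for each of the 120, as they did for 15.7% of all probe sets. Without the pairs as blocks, 4 probe sets were called, all higher. The count was 50 without early neurula pair 1, 142 without pair 2 and 136 without pair 3, and 40, 20 and 24 without mid-gastrula pairs 1, 2 and 3. It was 20 with values under 5 set to 5, and 0 under a variance trend over the mean difference in limma, where 3076 had an unadjusted p under 0.05. Of the 49 called probe sets named below, 11 were called whichever pair was left out, and all 49 kept their direction in every alternative they were run in. That kept direction was mostly fixed in advance. Where the pair differences of the stages do not overlap, leaving out a pair cannot turn it. Other blocks, variance models and sets of probe sets leave the size of a change as it was. With values under 5 set to 5, 47 of the 49 lost the call. Among them were dhrs3.L and sfrp2.S, which had no value under 5, so losing the call there does not mark a dim gene.

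Most called probe sets had a mid-gastrula arm difference near 0, as most probe sets did, and a larger one at early neurula, which a call for the change favours. Among the 99 called higher, the arm difference had a median of 1.15 at early neurula and of -0.03 at mid-gastrula, and the median change was 1.12. Among the 21 called lower, those medians were -0.58 and 0.18, and the median change was -0.81. The arm difference at mid-gastrula lay within 0.2 of 0 for 82 of the 120, a smaller share than the 90.9% of all probe sets. Both stages had the same sign, with the larger size at early neurula, for 43 of the 99 and 4 of the 21, against 31.4% of all probe sets. The signs were opposite for 56 of the 99 and 17 of the 21, against 44.1% of all, mostly around a mid-gastrula value near 0, and in 18 of the 120 that mid-gastrula value was beyond 0.3 in size. None of the 120 had the same sign with the smaller size at early neurula, as 24.5% of all probe sets had. This was largely fixed in advance. No called change was smaller than 0.58 in size, so this class needs a mid-gastrula arm difference beyond 0.58. The shares of all probe sets in these classes rest mostly on arm differences near 0, so they are not like for like. At early gastrula, which the test did not use, the labelled arms differed by less than 0.2 for 87 of the 99 and 15 of the 21. The share of all probe sets was not taken at that stage, so these counts are only a description.

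The arm difference by itself passed the test for 710 probe sets at early neurula (2.19%), 444 higher and 266 lower. At mid-gastrula it passed for 12 (0.037%), 7 higher and 5 lower. Of the 710, 113 were also called for the change, and 698 had a change of the same sign as their early neurula difference. Both counts are largely built in, since the early neurula difference is itself a part of the change. The remaining 597 therefore differed between the arms at early neurula without a called change since mid-gastrula, which does not show that their arm difference was the same at both stages. Across all probe sets the arm differences of the stages correlated at r = 0.25, a description over genes that share arrays. Over all probe sets the median spread of the pair differences was alike at both stages, with an SD of 0.126 at early neurula and 0.119 at mid-gastrula. Single genes could differ in either direction. For the brightest probe set of cyp26a1.S the SD was 0.519 at early neurula and 0.027 at mid-gastrula, and for hsp70.L it was 0.010 and 0.255. The fit takes 1 variance per probe set for both stages, so the SE of a stage does not follow the spread of that stage alone.

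**Figure D1:**
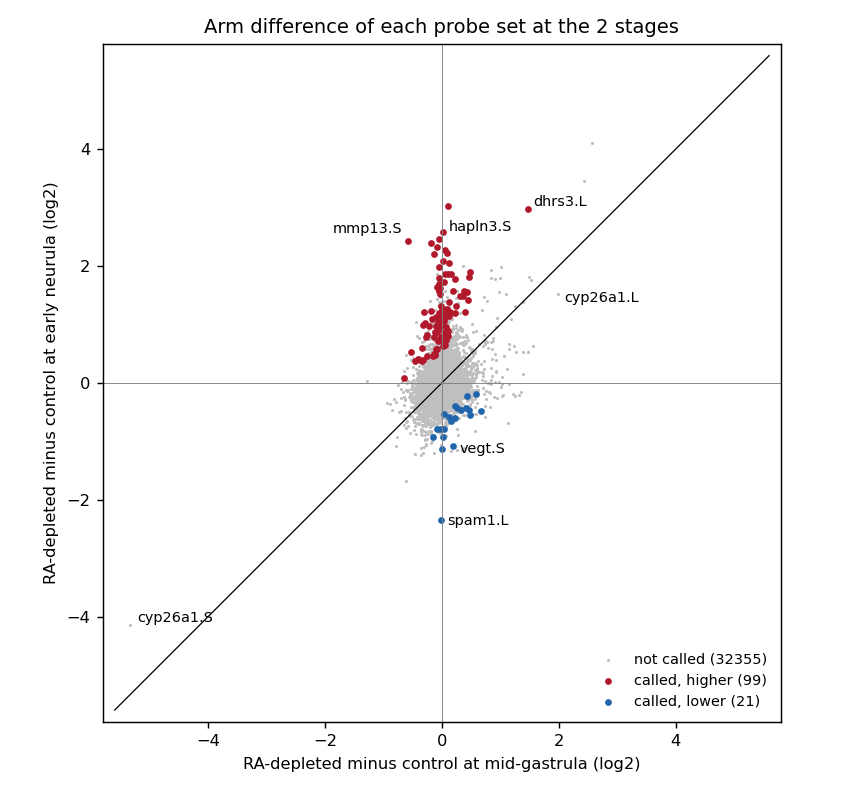
Arm difference (labelled RA-depleted minus labelled control, log2, mean of 3 pairs) of 32475 probe sets at early neurula (vertical axis) against mid-gastrula (horizontal axis); the diagonal marks equal differences. The 99 probe sets called higher (red) and the 21 called lower (blue) spread mainly up and down near a mid-gastrula difference of 0, while cyp26a1.S lies far out at both stages (-4.14 and -5.34).

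The level of the called genes was also moving with time. From mid-gastrula to early neurula, the 99 probe sets called higher had a median increase of 2.26 in labelled RA-depleted explants and of 1.08 in labelled control explants. The mean was higher by over 0.5 in both arms for 62 of them. It was higher by over 0.5 in the labelled RA-depleted arm and within 0.5 in the labelled control arm for 23. In a further 5 the labelled RA-depleted mean was higher and the labelled control mean lower, each by over 0.5. For 62 of the 99 the level was thus higher later in both arms, and the larger gain in the labelled RA-depleted arm follows from the call itself. The counts in these classes were not taken over all probe sets, so no background share stands beside them. Of the 21 called lower, 8 were higher by over 0.5 in both arms and 5 lower by over 0.5 in both. For 28 of the 99 the labelled control mean at early neurula and both mid-gastrula means were under 5, a level at which these files cannot tell a dim transcript from background. For these, the size of the change is uncertain. Other called probe sets, such as those of ak1.L and nr2f2.L, were under 5 in both arms at mid-gastrula and above it in both arms at early neurula. At so dim a level an arm difference may not show, so their change rests mainly on early neurula. The number of such probe sets was not taken.

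In the metabolism of RA, the arm differences of dhrs3.L and cyp26c1.S rose. The dhrs3 enzyme reduces retinaldehyde to retinol and so lowers the supply of RA. For dhrs3.L the early neurula arrays read 10.67, 10.63 and 11.03 on the labelled RA-depleted arrays, against 7.42, 7.72 and 8.25 on the labelled control arrays. Its mid-gastrula arrays read 10.30, 9.86 and 9.83 on the labelled RA-depleted arrays, against 8.88, 8.28 and 8.42 on the labelled control arrays. The labelled RA-depleted arrays were higher at both stages with no overlap, and the gap was wider at early neurula, where the labelled control arrays were lower than at mid-gastrula. Its arm difference was 2.98 at early neurula and 1.47 at mid-gastrula, a change of 1.52 ± 0.13 (SE, adjusted p = 0.005). It was the only one of the 12 probe sets called at mid-gastrula that was also called for the change. At early gastrula its arm difference was 0.64, so the 3 stages in order gave 0.64, 1.47 and 2.98.

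Among the RA-degrading enzymes, cyp26c1.S was called by 1 of 3 probe sets (Xl2.1946.1.A1_at). That probe set read 6.05, 5.16 and 6.48 on the labelled RA-depleted arrays, against 4.05, 3.45 and 4.58 on the labelled control arrays at early neurula. At mid-gastrula it read 3.16, 3.24 and 3.02 on the labelled RA-depleted arrays, against 3.21, 2.87 and 3.02 on the labelled control arrays. All values at mid-gastrula and those of the labelled control arm at early neurula were dim, and only the labelled RA-depleted arrays at early neurula passed 5. The change was 1.76 ± 0.14 (SE, adjusted p = 0.00312), and with values under 5 set to 5 it was 0.90 and not called. The gene's other probe sets, one of them brighter on average, gave 0.24 and 0.41 and were not called. The brightest probe set of cyp26a1.S had a smaller arm difference at early neurula (-4.14) than at mid-gastrula (-5.34), but this change of 1.20 ± 0.22 (SE, adjusted p = 0.0965) did not pass. Its 3 early neurula pair differences ran from -4.65 to -3.61, while the mid-gastrula ones lay between -5.37 and -5.31. For cyp26a1.L the arm difference was 1.53 at early neurula and 1.99 at mid-gastrula, and the change of -0.46 had a 95% interval from -0.97 to 0.05.

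Of the list of RA metabolism and receptors, 22 homeologs of 17 genes were measured, and 1 was called higher (dhrs3.L) and none lower. Over all 11303 genes with 1 probe set each, 41 were called higher and 11 lower, 5955 lay above 0 and 5348 below 0. The median change was 0.05, against 0.01 over all those genes. The brightest probe set of the RA-synthesising enzyme aldh1a2.L was at log2 11.09 or more on all 12 arrays, with a change of 0.18 (95% interval -0.09 to 0.45). Its other probe sets, with means from 3.45 to 10.63, gave changes from -0.06 to 0.30, and none was called. The receptor rara.L had arm differences of 0.66 at early neurula and 0.38 at mid-gastrula, and a change of 0.28 (0.06 to 0.49, adjusted p = 0.368). Other probe sets of rara.L, less bright on average, gave changes of the other sign (-0.12 and -0.11) that were not called.

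In the list of genes that the literature gives as responsive to RA, 2 of 14 homeologs were called higher and none lower, against 41 and 11 of 11303 genes. The median change of the list was 0.33, and 11 of its 14 members lay above 0, against 5955 of 11303 genes. The arm difference at early neurula was itself called higher for 7 of the 14 and lower for 1, against 187 and 101 of 11303 genes. At mid-gastrula it was called higher for 2 and lower for 1, against 2 and 4. For a member that RA induces, such as an enzyme that removes RA or its precursor, the labels lead one to expect a lower level in the labelled RA-depleted arm. A call higher is the reverse of that order. What these directions say about the arm labels was not tested. Besides dhrs3.L, the member called for the change was nr2f2.L, which encodes the orphan nuclear receptor COUP-TFII. It read 7.22, 6.47 and 7.83 on the labelled RA-depleted arrays, against 6.30, 5.66 and 6.94 on the labelled control arrays at early neurula. It read 3.83, 3.81 and 3.71 on the labelled RA-depleted arrays, against 4.08, 3.80 and 3.83 on the labelled control arrays at mid-gastrula. The levels of the arms overlapped at early neurula, yet each labelled RA-depleted array was above its own partner, by 0.81 to 0.92. At mid-gastrula all 6 arrays were dim and the pair differences ran from -0.25 to 0.01. The change was 0.99 ± 0.10 (SE, adjusted p = 0.00786). The homeobox cofactors meis3.L and meis3.S differed between the arms at early neurula by 1.55 and 1.01, and at mid-gastrula by 0.99 and 0.51, with no called change (adjusted p = 0.323 and 0.171).

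None of the 25 Hox homeologs measured was called in either direction, against 41 genes called higher and 11 lower of 11303. The 8 of paralog groups 1 to 5 had a median change of 0.22, with 5 above 0, against 5955 of 11303 genes. The 17 of groups 6 to 13 had a median of -0.36, with 14 below 0, against 5348 of 11303. At the head of the anterior genes by adjusted p, hoxa3.S read 8.95, 8.48 and 8.22 on the labelled RA-depleted arrays, against 7.83, 7.85 and 7.40 on the labelled control arrays at early neurula and was dim in both arms at mid-gastrula. Its change was 0.82 ± 0.14 (SE, adjusted p = 0.0679). The posterior gene hoxc6.S read 10.19, 10.19 and 9.21 on the labelled RA-depleted arrays, against 10.25, 10.38 and 9.64 on the labelled control arrays at early neurula. At mid-gastrula it read 6.64, 7.51 and 6.01 on the labelled RA-depleted arrays, against 6.09, 5.86 and 4.43 on the labelled control arrays. Each labelled RA-depleted array was above its partner at mid-gastrula, by 0.55, 1.65 and 1.58, and the arms lay close together at early neurula. The change of -1.49 ± 0.27 (SE, adjusted p = 0.0886) did not pass. Other probe sets of hoxc6.S, less bright on average, gave changes of 0.003, -0.49 and -0.36, and none was called. Their arm differences at mid-gastrula were 0.09, 0.47 and 0.37. Of the single pairs left out, only mid-gastrula pair 1 brought a call of the change of -1.49 (-1.84, adjusted p = 0.0124). It had the smallest arm difference of its stage, so leaving it out favours a call.

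That pair stood apart for several genes. In mid-gastrula pair 1 the arm difference was -0.02 for sox2.L, 0.01 for nodal.L and -0.40 for myod1.L, while pairs 2 and 3 gave 1.98 and 2.23 for sox2.L, 1.64 and 1.79 for nodal.L, and 0.93 and 2.02 for myod1.L. None of these 3 genes had a called change. Without that pair the changes of sox2.L (-1.57, adjusted p = 0.0351) and nodal.L (-1.73, adjusted p = 0.0084) were called. Leaving out the pair that differs most favours a call, and neither was called with any other single pair left out. These 3 genes are shown because pair 1 differs in them, and the share of all probe sets in which it does was not taken. The part this plays in other genes was not tested.

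The called genes on the early mesoderm list had arm differences that fell. Of 49 homeologs on the list of early mesoderm and of ventral or posterior signals, 4 were called lower and none higher, against 11 genes lower and 41 higher of 11303. The median change was -0.35, against 0.01 over all genes, and 39 of the 49 lay below 0, against 5348 of 11303. The T-box gene vegt.S, whose product helps to specify endoderm and mesoderm, read 8.91, 9.0 and 7.96 on the labelled RA-depleted arrays, against 10.04, 9.98 and 9.11 on the labelled control arrays at early neurula. It read 12.20, 12.06 and 11.79 on the labelled RA-depleted arrays, against 12.04, 11.93 and 11.53 on the labelled control arrays at mid-gastrula. The arms did not overlap at early neurula, where the labelled RA-depleted arrays were lower, and each labelled RA-depleted array at mid-gastrula was slightly above its partner. The arm difference was -1.08 at early neurula and 0.18 at mid-gastrula, a change of -1.27 ± 0.09 (SE, adjusted p = 0.0022).

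The Wnt-responsive transcription factor sp5.L read 8.78, 9.54 and 8.28 on the labelled RA-depleted arrays, against 10.11, 10.35 and 9.53 on the labelled control arrays at early neurula. It read 9.97, 10.36 and 10.27 on the labelled RA-depleted arrays, against 10.12, 10.14 and 10.33 on the labelled control arrays at mid-gastrula. Its labelled RA-depleted arrays were all below their partners at early neurula, although 1 of them overlapped the other arm's range, and they lay on either side of their partners at mid-gastrula. The change was -1.14 ± 0.16 (SE, adjusted p = 0.034). Another T-box gene, eomes.L, read 4.97, 5.08 and 5.40 on the labelled RA-depleted arrays, against 5.89, 5.65 and 6.24 on the labelled control arrays at early neurula and lay between 9.67 and 10.08 on the mid-gastrula arrays of both arms. The arms separated at the low level of early neurula and not at the high one of mid-gastrula, with a change of -0.75 ± 0.11 (SE, adjusted p = 0.0478). The secreted factor pnhd.L (pinhead) read 9.96, 10.08 and 9.24 on the labelled RA-depleted arrays, against 11.04, 10.82 and 10.19 on the labelled control arrays at early neurula and lay between 11.25 and 11.59 at mid-gastrula. Its change was -0.77 ± 0.11 (SE, adjusted p = 0.0336).

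Levels of vegt.S, eomes.L and pnhd.L were lower at early neurula than at mid-gastrula on all arrays of both arms. The homeologs of brachyury, tbxt.S and tbxt.L, had changes of -1.06 and -1.05 that did not pass (adjusted p = 0.103 and 0.209). Their arm differences were -0.55 and -0.53 at early neurula against 0.52 and 0.53 at mid-gastrula. The Wnt ligand wnt8a.L was bright on all arrays, with a change of 0.14 (95% interval -0.26 to 0.53).

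**Figure D2:**
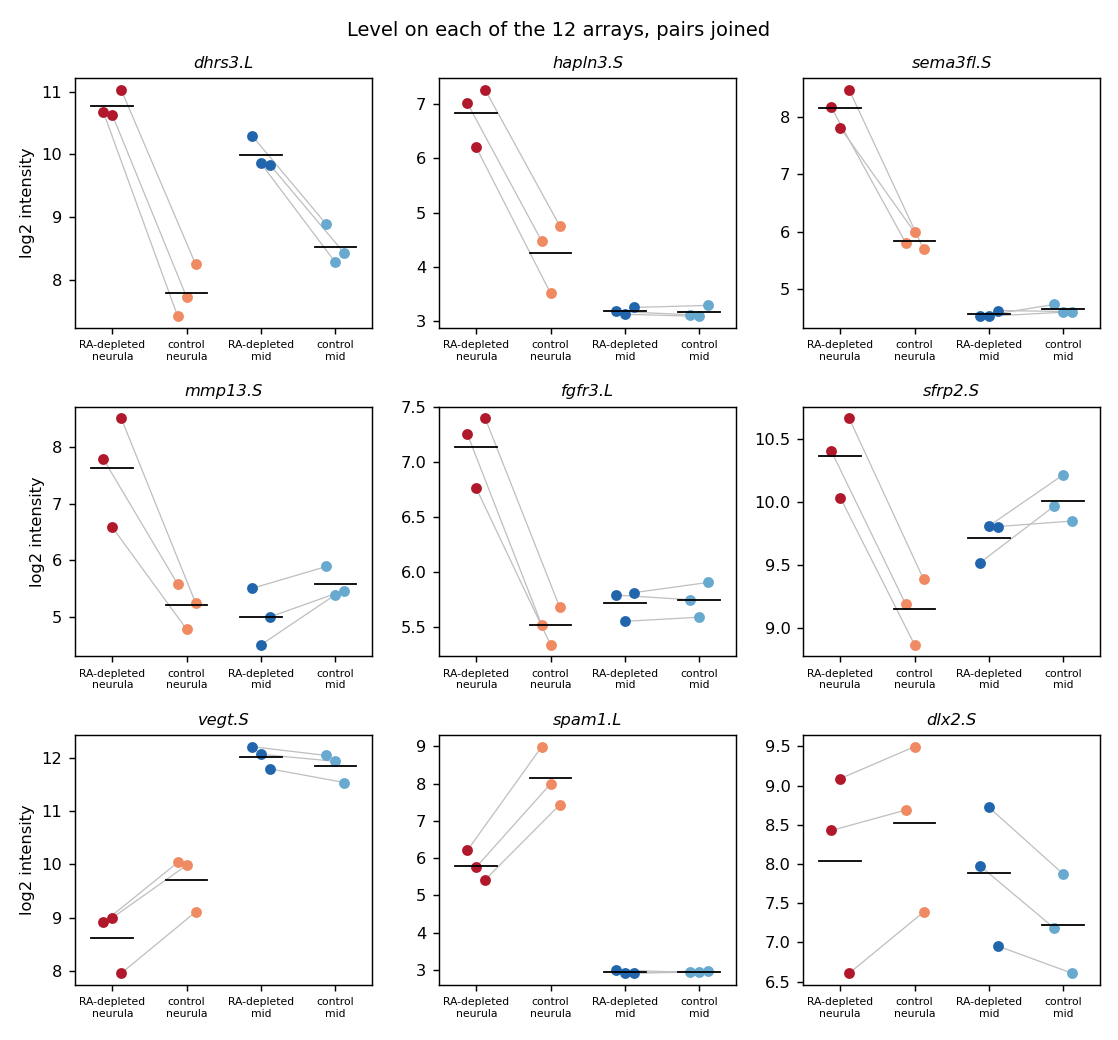
Log2 intensity on each of the 12 arrays for 9 genes; points are arrays, grey lines join the same-numbered arrays of a stage and black bars are means of 3 arrays. For dhrs3.L the labelled RA-depleted arrays lie above the labelled control arrays at both stages, for hapln3.S, sema3fl.S and fgfr3.L they lie above at early neurula and close to them at mid-gastrula, and for vegt.S and spam1.L they lie below at early neurula.

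The highest and the lowest change among the probe sets with a symbol, those of mmp13.S and spam1.L, belonged to genes on the list of extracellular matrix and cell guidance. Of 58 homeologs on that list, 3 were called higher and 1 lower, against 41 and 11 of 11303 genes, and the median change was 0.06, against 0.01 over all genes. The collagenase gene mmp13.S read 7.78, 6.58 and 8.50 on the labelled RA-depleted arrays, against 5.58, 4.78 and 5.25 on the labelled control arrays at early neurula. It read 5.50, 4.51 and 5.0 on the labelled RA-depleted arrays, against 5.89, 5.39 and 5.47 on the labelled control arrays at mid-gastrula. The labelled RA-depleted arrays were the higher ones at early neurula without overlap, and each was below its partner at mid-gastrula. The change of 3.00 ± 0.33 (SE, adjusted p = 0.0152) was the highest of all probe sets tested. Left out 1 pair at a time, it lay between 2.58 and 3.31 and was called in 2 of 6 fits.

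The link protein gene hapln3.S, whose product ties proteoglycans to hyaluronan, had the smallest p of all. Its called probe set Xl2.9735.1.S1_at read 7.02, 6.20 and 7.27 on the labelled RA-depleted arrays, against 4.48, 3.51 and 4.76 on the labelled control arrays at early neurula. At mid-gastrula the values ran from 3.09 to 3.29 in both arms. Only early neurula arrays stood above that level, and the labelled RA-depleted ones stood highest. The change was 2.56 ± 0.09 (SE, adjusted p = 6.73e-05). A second probe set of the gene was called with 1.24, and another, the brightest on average, gave 0.61 and was not called.

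The hyaluronidase-family gene spam1.L had the lowest change of all probe sets. It read 6.21, 5.76 and 5.42 on the labelled RA-depleted arrays, against 8.99, 7.99 and 7.43 on the labelled control arrays at early neurula and lay between 2.91 and 3.00 on all mid-gastrula arrays. All 6 mid-gastrula arrays were thus dim and all 6 early neurula arrays brighter, and at early neurula the labelled RA-depleted arrays were lower without overlap. The change was -2.33 ± 0.18 (SE, adjusted p = 0.00312). The semaphorin-like gene sema3fl.S, named for a family of secreted guidance proteins, read 8.16, 7.81 and 8.47 on the labelled RA-depleted arrays, against 5.81, 5.99 and 5.70 on the labelled control arrays at early neurula and lay between 4.52 and 4.73 at mid-gastrula. The arms were far apart at early neurula, and the change was 2.41 ± 0.21 (SE, adjusted p = 0.00528). Its homeolog sema3fl.L gave 1.21 (95% interval 0.68 to 1.75), which did not pass (adjusted p = 0.104).

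The chemokine receptor gene cxcr4.L read 9.66, 9.40 and 9.54 on the labelled RA-depleted arrays, against 8.48, 8.13 and 8.55 on the labelled control arrays at early neurula. Its mid-gastrula arrays read 9.48, 9.18 and 9.48 on the labelled RA-depleted arrays, against 9.23, 9.12 and 9.45 on the labelled control arrays. The labelled RA-depleted level was alike at both stages, while the labelled control level was lower at early neurula. The change was 1.03 ± 0.11 (SE, adjusted p = 0.0126). The proteoglycan gene vcan.L (versican), chosen after its values were seen, was called by 1 of 5 probe sets with a change of 1.27, and the other 4 gave 0.91 to 1.11. Another matrix metalloproteinase gene, mmp3.L, also chosen after its values were seen, changed by 1.11 ± 0.16 (SE, adjusted p = 0.0425) from a dim level at mid-gastrula.

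The FGF receptor gene fgfr3.L read 7.25, 6.76 and 7.40 on the labelled RA-depleted arrays, against 5.51, 5.33 and 5.68 on the labelled control arrays at early neurula. It read 5.79, 5.55 and 5.81 on the labelled RA-depleted arrays, against 5.74, 5.59 and 5.90 on the labelled control arrays at mid-gastrula. The labelled control arrays of early neurula and both arms at mid-gastrula shared a level near 5.6, and the labelled RA-depleted arrays of early neurula stood above it. The change was 1.66 ± 0.11 (SE, adjusted p = 0.00162). The secreted Wnt modulator sfrp2.S read 10.40, 10.03 and 10.66 on the labelled RA-depleted arrays, against 9.19, 8.87 and 9.39 on the labelled control arrays at early neurula. It read 9.52, 9.81 and 9.80 on the labelled RA-depleted arrays, against 9.97, 10.22 and 9.85 on the labelled control arrays at mid-gastrula. The labelled RA-depleted arrays were above the labelled control ones at early neurula and below their partners at mid-gastrula. The arm difference was 1.22 at early neurula and -0.30 at mid-gastrula, a change of 1.52 ± 0.12 (SE, adjusted p = 0.0032). In contrast, the Wnt receptor gene fzd10.L fell by 0.65 ± 0.10 (SE, adjusted p = 0.0461), with pair differences from -0.28 to -0.15 at early neurula and from 0.31 to 0.56 at mid-gastrula. The G protein regulator rgs3.L fell by 1.02 ± 0.14 (SE, adjusted p = 0.034).

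The forkhead gene foxa1.L, a factor of endoderm and axial tissue, read 10.65, 9.99 and 10.86 on the labelled RA-depleted arrays, against 10.16, 9.75 and 9.98 on the labelled control arrays at early neurula. It read 9.79, 9.30 and 10.08 on the labelled RA-depleted arrays, against 10.23, 9.96 and 10.58 on the labelled control arrays at mid-gastrula. Each labelled RA-depleted array was above its partner at early neurula and below it at mid-gastrula, although the ranges of the arms overlapped at both stages. The arm differences were 0.54 and -0.53, neither called by itself (adjusted p = 0.0564 and 0.235), and the change was 1.07 ± 0.16 (SE, adjusted p = 0.0465). A second probe set of foxa1.L gave 1.05 and the homeolog foxa1.S 0.84 (adjusted p = 0.0704 and 0.0637).

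The endodermal gene darmin.L read 10.11, 9.99 and 10.98 on the labelled RA-depleted arrays, against 8.88, 9.31 and 9.91 on the labelled control arrays at early neurula. It read 8.66, 8.98 and 9.08 on the labelled RA-depleted arrays, against 9.26, 9.13 and 9.32 on the labelled control arrays at mid-gastrula. Its pair differences were all above 0 at early neurula and all below 0 at mid-gastrula, and the change was 1.32 ± 0.17 (SE, adjusted p = 0.0263). Its other probe set gave 1.0 and was not called. The homeobox gene dlx2.S went the other way. It read 8.43, 9.09 and 6.61 on the labelled RA-depleted arrays, against 8.69, 9.50 and 7.39 on the labelled control arrays at early neurula. It read 7.97, 8.72 and 6.95 on the labelled RA-depleted arrays, against 7.18, 7.87 and 6.61 on the labelled control arrays at mid-gastrula. Replicates of 1 arm differed more from each other than the arms did, but each labelled RA-depleted array was below its partner at early neurula and above it at mid-gastrula. The change was -1.15 ± 0.17 (SE, adjusted p = 0.0478). The probe set of tnip1.S, an inhibitor of NF-kB signalling that was chosen after its values were seen, differed mainly at mid-gastrula. Its arm difference was 0.08 at early neurula and -0.65 at mid-gastrula, with a change of 0.73 ± 0.11 (SE, adjusted p = 0.0425).

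**Figure D3:**
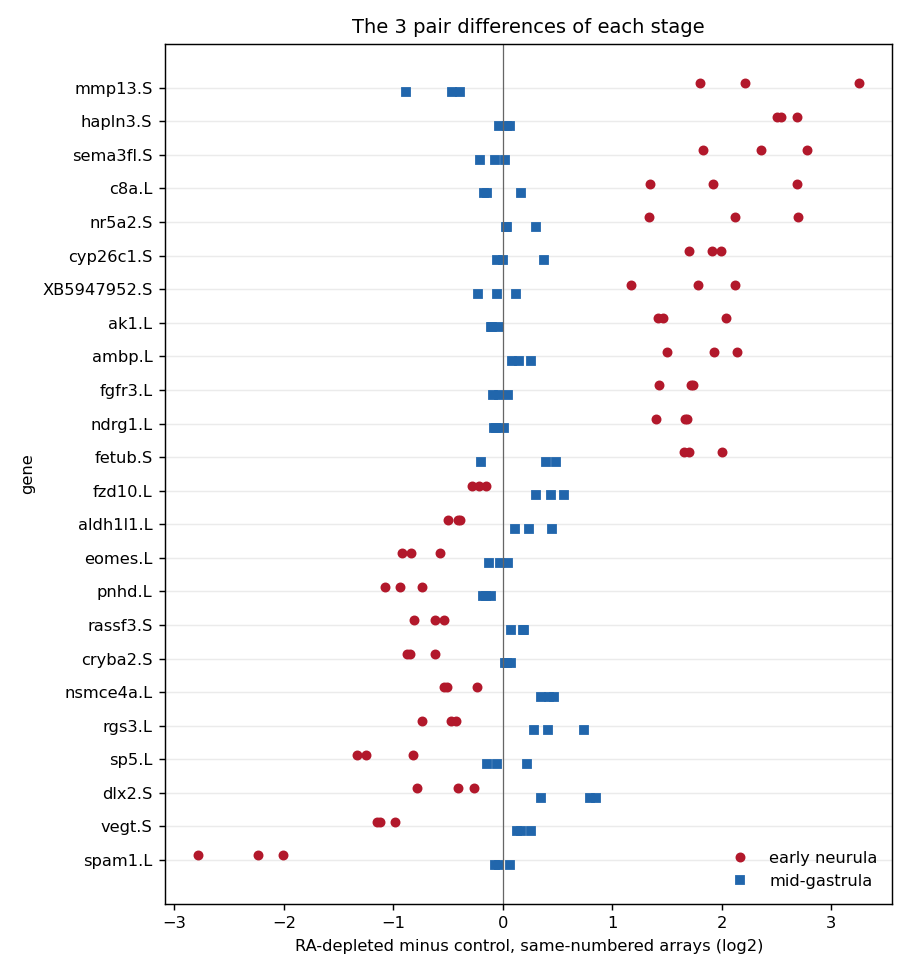
The 3 pair differences (labelled RA-depleted minus labelled control, log2) at early neurula (red circles) and at mid-gastrula (blue squares) for the 12 genes with the highest and the 12 with the lowest called change. The mid-gastrula points lie near 0 for most genes, and those of mmp13.S, dlx2.S, nsmce4a.L, rgs3.L and fzd10.L, for example, lie further out on the other side of 0 from their early neurula points.

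On the list of the pronephric kidney field and tubule, 1 of 28 homeologs was called, mecom.L, against 41 genes higher and 11 lower of 11303. Of the 28, 20 lay above 0, against 5955 of 11303, with a median change of 0.17. The zinc finger gene mecom.L, which is expressed in the frog pronephros, read 5.05, 5.05 and 4.57 on the labelled RA-depleted arrays, against 3.69, 3.94 and 3.67 on the labelled control arrays at early neurula. It read 4.31, 4.07 and 4.02 on the labelled RA-depleted arrays, against 4.41, 4.17 and 4.09 on the labelled control arrays at mid-gastrula. The labelled RA-depleted arrays were the higher ones at early neurula, all values were close to 5 or under it, and the change was 1.22 ± 0.12 (SE, adjusted p = 0.00849). With values under 5 set to 5 the change was 0.03 and the call was lost. It was lost too without any 1 of the mid-gastrula pairs (adjusted p = 0.0525, 0.0735 and 0.0588). A second probe set of mecom.L gave 0.62 and was not called. The LIM homeobox gene lhx1.L, needed for the pronephric field, read 9.0, 8.49 and 9.11 on the labelled RA-depleted arrays, against 6.51, 6.34 and 7.75 on the labelled control arrays at early neurula. It read 9.51, 9.35 and 9.57 on the labelled RA-depleted arrays, against 9.38, 9.04 and 8.94 on the labelled control arrays at mid-gastrula. The labelled control arrays were much lower at early neurula, while the labelled RA-depleted arrays were slightly lower. Its change of 1.64 ± 0.27 (SE, adjusted p = 0.0623) did not pass, although the arm difference at early neurula did (2.0, adjusted p = 0.00197). Other probe sets of lhx1.L, less bright on average, gave changes of 1.01 and, on a dim one, -0.06, and neither was called. Their arm differences at early neurula were 1.21 and 0.01.

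The pronephric gene pax8.L was dim on every array, with a change of -0.01 (95% interval -0.31 to 0.30). The zinc finger gene osr1.L of the early lateral mesoderm had a change of 1.04 with a wide interval (0.28 to 1.80, adjusted p = 0.333). The LIM homeobox gene lmx1b.1.S, chosen after its values were seen, changed by 0.71 ± 0.10 (SE, adjusted p = 0.0349), and its other probe set gave 0.22. In bulk explants such as these, fewer cells of a type and less RNA per cell cannot be told apart.

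Muscle genes had a median change of 0.20, with 35 of 53 homeologs above 0, against 5955 of 11303 genes. Of the 53, 1 was called higher and none lower, against 41 and 11 of 11303. The called gene was ak1.L, an adenylate kinase abundant in muscle. It read 10.15, 9.54 and 10.12 on the labelled RA-depleted arrays, against 8.73, 7.51 and 8.65 on the labelled control arrays at early neurula and lay between 3.30 and 3.52 at mid-gastrula. The labelled RA-depleted arrays were the higher ones at early neurula, by 1.42 to 2.04 within pairs. The change was 1.72 ± 0.16 (SE, adjusted p = 0.00645), and a second probe set of the gene was called with 1.84. The myogenic regulator myod1 was not called by either homeolog, with changes of -0.44 for myod1.L and -0.19 for myod1.S, whose intervals reached from -1.76 to 0.88 and from -1.34 to 0.96. Chosen after their values were seen, palmd.L (palmdelphin) changed by 1.23 and the LIM-domain gene fhl3.S by 1.08. The other 4 probe sets of fhl3.S, the brightest of them first, gave 0.33, -0.16, -0.02 and -0.03 and were not called.

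The gene fetub.S (fetuin B, a secreted protease inhibitor) read 10.62, 9.92 and 12.18 on the labelled RA-depleted arrays, against 8.92, 7.91 and 10.52 on the labelled control arrays at early neurula and lay between 4.12 and 5.48 at mid-gastrula. Replicate 3 was the highest in both arms at early neurula, so the ranges overlapped, but every pair differed by at least 1.65. The change was 1.56 ± 0.19 (SE, adjusted p = 0.0205). The gene ambp.L, the precursor of alpha-1-microglobulin and bikunin, read 9.27, 8.77 and 9.15 on the labelled RA-depleted arrays, against 7.77, 6.84 and 7.01 on the labelled control arrays at early neurula. It read 6.80, 5.79 and 5.01 on the labelled RA-depleted arrays, against 6.64, 5.71 and 4.76 on the labelled control arrays at mid-gastrula. The arms separated at early neurula and followed the replicate number at mid-gastrula, with a change of 1.70 ± 0.16 (SE, adjusted p = 0.00645). A second probe set of ambp.L was dim and gave -0.11.

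The complement gene c8a.L changed by 2.03 ± 0.29 (SE, adjusted p = 0.0425), with pair differences of 2.69, 1.92 and 1.34 at early neurula and from -0.17 to 0.17 at mid-gastrula. The nuclear receptor gene nr5a2.S changed by 1.93 ± 0.29 (SE, adjusted p = 0.048), with pair differences of 2.12, 1.33 and 2.70 at early neurula and from 0.03 to 0.30 at mid-gastrula. A second probe set of nr5a2.S was dim, gave 0.14 and was not called. Of the genes chosen after their values were seen, hrg.L (histidine-rich glycoprotein) changed by 0.84 and the glucose transporter slc2a2.L by 0.96. On the endoderm list, 2 of 35 homeologs were called higher (foxa1.L and darmin.L) and 1 lower (vegt.S), against 41 and 11 of 11303 genes. The median change of that list was -0.04.

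The remaining named genes were of mixed kinds. The gene ndrg1.L (N-myc downstream regulated) read 5.78, 5.61 and 6.30 on the labelled RA-depleted arrays, against 4.12, 4.21 and 4.62 on the labelled control arrays at early neurula and lay between 2.71 and 2.81 at mid-gastrula. Both arms were thus brighter at early neurula and the labelled RA-depleted one more so, with a change of 1.62 ± 0.10 (SE, adjusted p = 0.00148). With values under 5 set to 5 it was 0.90 and not called. The leucine-rich repeat gene lrrn1.L changed by 1.42 ± 0.19 (SE, adjusted p = 0.0336), and its other probe set gave 0.04. On top of an arm difference of 0.48 at mid-gastrula, it had one of 1.90 at early neurula. Of 45 homeologs on the neural list it was the only 1 called, against 41 genes called higher and 11 lower of 11303. The median change of that list was 0.04. XB5947952.S changed by 1.74 ± 0.22 (SE, adjusted p = 0.0248). Another of its probe sets was called with 1.55, and its brightest gave 1.05 and was not called. The T-box gene tbx1.L and the zinc finger gene tshz3.L, both chosen after their values were seen, changed by 1.20 and 1.16.

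Lower changes were found for cryba2.S, a lens crystallin gene, with -0.83 ± 0.10 (SE, adjusted p = 0.0189). The Ras-association gene rassf3.S fell by 0.81. Its other probe sets gave -0.69, on the brightest, and -0.15, and neither was called. The probe set called for nsmce4a.L, a gene of the SMC5/6 complex, fell by 0.84, but its other 5 probe sets gave -0.04 to 0.22. With values under 5 set to 5 its change was -0.21 and not called. The folate enzyme gene aldh1l1.L fell by 0.70 with an adjusted p close to the threshold (0.0492). The tight-junction gene cldn4.L, chosen after its values were seen, fell by 0.63, and its other probe sets gave -0.46 and -0.40.

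The highest changes also included probe sets without a gene symbol. Xl2.9073.1.A1_at read 7.46, 7.12 and 6.84 on the labelled RA-depleted arrays, against 4.34, 3.93 and 4.06 on the labelled control arrays at early neurula and lay between 3.04 and 3.34 at mid-gastrula. Its change was 2.92 ± 0.13 (SE, adjusted p = 0.000181), and Xl2.51346.1.S1_at and Xl2.15008.1.A1_at followed with 2.58 and 2.51. The lowest such changes were -0.94 for Xl2.4695.1.S1_at, -0.93 for Xl2.13925.1.A1_at and -0.81 for Xl2.47914.1.A1_a_at.

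Xenopus laevis carries a pair of homeologs, .L and .S, of many genes. For 26 called genes the other homeolog was measured, and none of these was called, against 41 genes called higher and 11 lower of 11303. The called copy of a pair was chosen for its change, so a smaller change in its partner is no finding. The sign of the change was the same in 18 of the 26 (69.2%), against 60.5% of all 2009 homeolog pairs measured. The change of vegt.L was -0.47, of cxcr4.S 0.77, of eomes.S -0.14 and of fgfr3.S 0.14. For 24 called genes there were 45 other probe sets, of which 37 had the same sign and 4 were called, against 0.37% of all probe sets called. Probe sets of 1 gene can read the same transcript on the same arrays. How often they share a sign over all genes was not taken, so the count of 37 is only a description. Probe sets of homeologs and of paralogs can read each other's transcripts, and their specificity was not tested.

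**Figure D4:**
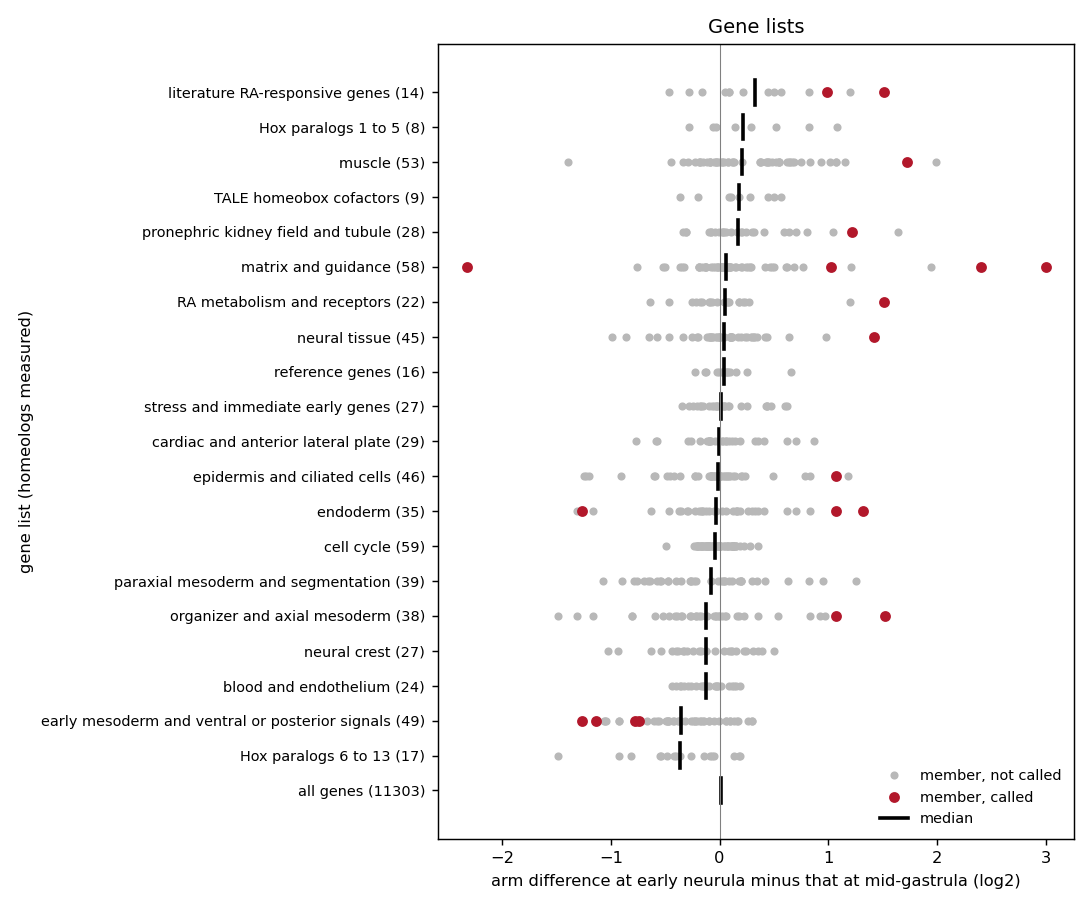
Change of the arm difference (early neurula minus mid-gastrula, log2) for every measured homeolog of 20 gene lists, with 1 probe set per gene; red points passed the test, grey points did not and black bars are medians. The lists of early mesoderm (median -0.35) and of Hox groups 6 to 13 (-0.36) sit lowest, genes responsive to RA (0.33) sit highest, and the bar of all 11303 genes is at 0.01.

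Over all 11303 genes, 41 were called higher and 11 lower. No member was called on the lists of TALE cofactors (9 homeologs, median 0.18), cardiac and anterior lateral plate (29, median -0.004), blood and endothelium (24, median -0.13), paraxial mesoderm (39, median -0.08), neural crest (27, median -0.12), cell cycle (59, median -0.04), stress genes (27, median 0.01) or reference genes (16, median 0.04). On the organizer list 2 of 38 were called higher (sfrp2.S and foxa1.L), with a median of -0.12. On the epidermis list 1 of 46 was called higher (foxa1.L), with a median of -0.02. The segmentation genes ripply2.1.S and ripply2.2.L had changes of 1.26 and 0.95 that did not pass (adjusted p = 0.151 and 0.187). These were called (adjusted p = 0.0125 and 0.0135) without early neurula pair 3, in which their arm differences were smallest. Leaving out such a pair favours a call, and neither was called with any other single pair left out.

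Markers of the tissues that the explants could hold were read beside these results. None of 48 marker homeologs was called for the change, against 41 genes called higher and 11 lower of 11303. At that share, the lack of a call does not set the markers apart from other genes. Blood markers were dim on average over the 12 arrays in all 4 homeologs, and 9 of 11 epidermal ones were. The keratin and intelectin genes among the epidermal markers stood out in some pairs. In early neurula pair 1 the arm difference was 4.65 for itln1.L, 3.44 for krt12.4.L and 3.17 for krt12.5.S. In mid-gastrula pair 2 it was 3.30 for krt12.4.L, 2.95 for krt12.4.S and 3.66 for krt12.5.S. It was 2.05 for krt12.4.L in early neurula pair 3 and -2.78 for krt12.5.S in early neurula pair 2. The mean of the 11 epidermal markers was 3.89 to 4.45 in the labelled RA-depleted arm and 3.36 to 4.43 in the labelled control arm at early neurula. At mid-gastrula it was 3.41 to 4.31 in the labelled RA-depleted arm and 3.36 to 3.42 in the labelled control arm. The change was called for 50 probe sets without early neurula pair 1 and for 20 without mid-gastrula pair 2. It was called for 7 without both pairs, 6 higher and 1 lower, a setting chosen after seeing the data that leaves 2 pairs a stage, and all 7 were among the 120. The part of these markers in the called changes was not tested. Endoderm markers were bright, a2m.S the brightest with a mean of 13.45, and were lower on average in the labelled RA-depleted arm at both stages. Their mean level over 6 homeologs was 10.21 to 10.43 in the labelled RA-depleted arm and 10.51 to 10.67 in the labelled control arm at early neurula. At mid-gastrula it was 11.18 to 11.39 in the labelled RA-depleted arm and 11.45 to 11.61 in the labelled control arm. Markers of lateral mesoderm and the pronephric field, also 6 homeologs, averaged 6.12 to 6.65 in the labelled RA-depleted arm and 5.56 to 6.09 in the labelled control arm at early neurula. At mid-gastrula they averaged 6.40 to 6.78 in the labelled RA-depleted arm and 6.45 to 6.84 in the labelled control arm. Their part in the called changes was not tested either.

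The arm differences already called at mid-gastrula gave a further view. Of the 12 probe sets called there, 9 were also called at early neurula, all with the same sign. Besides dhrs3.L and the 3 cyp26a1 probe sets they included ppp1r3c.1.L, which encodes a glycogen-targeting subunit of a phosphatase. It read 9.38, 9.18 and 9.36 on the labelled RA-depleted arrays, against 9.98, 9.82 and 10.11 on the labelled control arrays at early neurula. It read 7.77, 7.70 and 7.43 on the labelled RA-depleted arrays, against 8.38, 8.35 and 8.01 on the labelled control arrays at mid-gastrula. At both stages they were lower on the labelled RA-depleted arrays without overlap, and the change of -0.05 had a narrow 95% interval (-0.24 to 0.15). The unnamed probe sets Xl2.283.1.S1_at and Xl2.23512.1.S1_at had the highest arm differences of the 12, both at early neurula (4.11 and 3.45) and at mid-gastrula (2.57 and 2.43), with changes of 1.54 and 1.01 that did not pass (adjusted p = 0.218 and 0.393). The heat shock gene hsp70.L had arm differences of -0.34 at early neurula and -0.94 at mid-gastrula. Those of ccno.L, a gene of multiciliated cells, were -0.13 and -0.62. Both were called at mid-gastrula alone, and the changes of 0.60 and 0.49 did not pass (adjusted p = 0.148 and 0.101).

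Not all genes that differed between the arms at early neurula had a called change. The zinc finger gene znf703.S had arm differences of 0.71 at early neurula and 0.87 at mid-gastrula, and a change of -0.16 (95% interval -0.52 to 0.20). For tdgf1.2.S, a Nodal co-receptor gene, they were 1.12 and 0.95, with a change of 0.17 (-0.21 to 0.55). The homeobox gene gbx2.1.S had 1.52 and 1.10, with a wide interval of the change (-0.38 to 1.22). The interval of gbx2.1.S reaches changes of the size called for other genes.

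**Figure D5:**
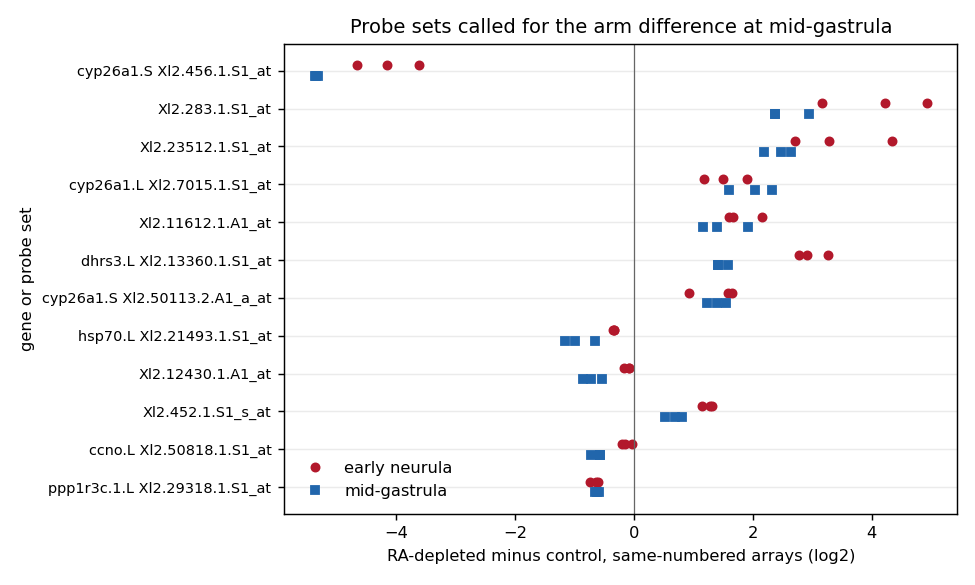
The 3 pair differences (labelled RA-depleted minus labelled control, log2) at early neurula (red circles) and at mid-gastrula (blue squares) of the 12 probe sets called for the arm difference at mid-gastrula, ordered by its size. Those of dhrs3.L do not overlap between the stages (2.78 or more against 1.58 or less), and those of ppp1r3c.1.L do.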

How the data were processed

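Explants were hybridised to Affymetrix Xenopus laevis arrays, and the 12 arrays of early neurula and mid-gastrula were used. Per the submitters' processing notes, the deposited log2 values were made with RMA (background correction, quantile normalization and probe summary) in the affy package. Versions, and which arrays were normalized together, are not given in the sources used here. RMA pulls arrays towards 1 distribution, so a shift of all genes would not show, and it gives no detection calls; log2 5 was taken as dim.

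Of 32635 probe sets, 160 array controls were left out. In the platform annotation, 15495 of the rest had 1 symbol, 279 several and 16701 none. The brightest probe set stood for each of 11303 genes in the lists. Same-numbered arrays of a stage were subtracted, and limma 3.58.1 in R 4.3.3 was fitted to the 6 pair differences with a mean for each stage (4 residual degrees of freedom, 4.13 prior) over 32475 probe sets, with Benjamini-Hochberg adjustment. The fit alone was also run on simulated independent pair differences with the same spread at both stages. That run does not test the pairing, values near the floor or unequal spread between the stages. Figures used Python 3.11.15 and matplotlib 3.10.9.

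The pairing rests on the replicate numbers in the sample titles. Deviations from group means of same-numbered arrays correlated at 0.64 to 0.74 within early neurula and at 0.73 to 0.78 within mid-gastrula, and those of different numbers at -0.48 to -0.11. Deviations cancel out within a group, so where same numbers correlate above 0, different numbers fall below 0 on average by construction. Across stages, pair differences of 1 number correlated at -0.03 to 0.01.

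Named were up to 12 called genes per direction by size with pair differences of the stages apart, up to 4 called members of a list, a panel of 31 genes, up to 10 genes per direction called at mid-gastrula, and up to 3 called probe sets per direction without a symbol. Another 11 genes (vcan.L, palmd.L, tshz3.L, tbx1.L, mmp3.L, hrg.L, slc2a2.L, fhl3.S, lmx1b.1.S, tnip1.S and cldn4.L), and other list members given with values, were chosen after their values were seen. The comparison, the lists and the panel were chosen with earlier results of these data known. Alternatives were other blocks, all 3 stages, a filter, a floor, other scalings, another variance model, fewer probe sets and leaving out each pair, or a set of pairs.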

Additional observations from a re-analysis of the deposited data

Results flagged for a closer look

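The arm differences of early neurula and mid-gastrula differed by the test of the change itself for 120 probe sets, and the named ones are given here with that change (early neurula minus mid-gastrula, labelled RA-depleted minus labelled control, log2). The highest were mmp13.S (3.00), Xl2.9073.1.A1_at (2.92), Xl2.51346.1.S1_at (2.58), hapln3.S (2.56), Xl2.15008.1.A1_at (2.51), sema3fl.S (2.41), c8a.L (2.03), nr5a2.S (1.93), cyp26c1.S (1.76), XB5947952.S (1.74), ak1.L (1.72), ambp.L (1.70), fgfr3.L (1.66), ndrg1.L (1.62), fetub.S (1.56), sfrp2.S (1.52) and dhrs3.L (1.52). Next came lrrn1.L (1.42), darmin.L (1.32), vcan.L (1.27), palmd.L (1.23), mecom.L (1.22), tbx1.L (1.20), tshz3.L (1.16) and mmp3.L (1.11). The smaller changes above 0 were fhl3.S (1.08), foxa1.L (1.07), cxcr4.L (1.03), nr2f2.L (0.99), slc2a2.L (0.96), hrg.L (0.84), tnip1.S (0.73) and lmx1b.1.S (0.71). Below 0 they were cldn4.L (-0.63), fzd10.L (-0.65), aldh1l1.L (-0.70), eomes.L (-0.75), pnhd.L (-0.77), rassf3.S (-0.81), Xl2.47914.1.A1_a_at (-0.81), cryba2.S (-0.83), nsmce4a.L (-0.84), Xl2.13925.1.A1_at (-0.93), Xl2.4695.1.S1_at (-0.94), rgs3.L (-1.02), sp5.L (-1.14), dlx2.S (-1.15), vegt.S (-1.27) and spam1.L (-2.33). Groups of 3 arrays are too small for a test of outlying arrays.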

How the results depend on the processing

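All 49 called probe sets named here kept their direction in every alternative they were run in (the filter on dim probe sets ran 42 of them and dropping several transcripts 46). Only the other scalings and the floor at 5 could have turned a direction, so this says little about how firm the changes are. Their number past the threshold was not kept. Fitted without the replicate block, 4 changes were called (4 higher, 0 lower), against 120 (99 and 21) with the same-numbered arrays paired; 3 of the 49 passed. The early neurula arm difference then had 64 calls and the mid-gastrula one 1, against 710 and 12. With the replicate number as a block shared by both stages there were 15 (14 and 1), and 250 and 5 for the stages. Double differences by number gave 53 (48 and 5). Adding early gastrula to the spread gave 299 (218 and 81), and 1405 and 61 for the stages. A filter on dim probe sets gave 63 (51 and 12). Setting values under 5 to 5 gave 20 (10 and 10), of which 4 were among the 120, and 192 at early neurula. Of the 49, 2 passed and 47 did not, and the 47 included dhrs3.L and sfrp2.S, which had no value under 5. A trended and robust variance gave 267 (184 and 83), and 1112 and 50 for the stages. That setting was first run with the trend over the mean difference and gave 0 calls (0 and 0; 3076 at an unadjusted p under 0.05 in limma), 25 at early neurula and 1 at mid-gastrula; the trend over the mean level was put in its place after that 0 was seen, and the first form is kept as an alternative chosen after seeing the data. Repeated quantile normalization, median centring and dropping probe sets with several possible transcripts gave 111 to 123.

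Leaving out 1 pair gave 20 to 142 changes (18 to 119 higher, 2 to 23 lower), 307 to 640 calls at early neurula and 1 to 21 at mid-gastrula. The count was 50 without early neurula pair 1, and 40, 20 and 24 without mid-gastrula pairs 1, 2 and 3. In all 6 such fits 11 of the 49 were called: hapln3.S, ndrg1.L, fgfr3.L, vegt.S, cyp26c1.S, spam1.L, sfrp2.S, dhrs3.L, Xl2.9073.1.A1_at, Xl2.15008.1.A1_at and Xl2.51346.1.S1_at. Without both early neurula pair 1 and mid-gastrula pair 2, a setting chosen after seeing the data, there were 7 (6 and 1), and 122 and 1 for the stages. The cause of these shifts was not tested. Double differences give no separate value for a stage. Of the 120 called probe sets, 46 were under log2 5 on average, against 43.7% of all probe sets. With 3 pairs a stage, sizes of such dim genes are the least certain.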
